A study of Caenorhabditis elegans with 2 samples.

Results

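A set of 10 housekeeping genes of Caenorhabditis elegans, namely aldo-2, gpd-2, atp-1, ant-1.1, eef-1A.1, iff-2, rack-1, hsp-1, ubq-1 and tba-2, were followed through peak lists for the transcription factor LIM-7. They were 10 of 19973 annotated protein-coding genes and were chosen by name because each held a peak summit in its promoter in the list made from both replicates. Here a promoter is the stretch between 1000 bp before and 200 bp after any annotated transcript start. By the same definition 752 genes had a promoter summit, or 3.77% of protein-coding genes. The 10 of 10 count was fixed by the choice of genes, so the values of their promoter summits are a description and carry no test. The genes were called abundant from general knowledge, since RNA levels were not measured in these files.

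LIM-7 is a LIM-homeodomain protein of the Islet class, known in the worm from the gonadal sheath. The assay was ChIP-seq (chromatin immunoprecipitation followed by sequencing), in which DNA attached to a protein is pulled down with an antibody and the regions it came from are listed as peaks. There were 2 biological replicates of 1 group, whole L4 larvae of strain OP779 at 48.5 hours, grown from L1 larvae that had been starved after bleaching. All animals carried the integrated transgene wgIs779, which holds lim-7 fused to TY1, EGFP and 3xFLAG together with unc-119(+), in the unc-119 (tm4063) mutant background. The precipitation used an antibody against GFP, so it read the tagged transgene product and not the native protein. Whole animals were used, and the cells from which a peak came cannot be told apart.

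The genes serve functions that nearly all cells share. Aldolase (aldo-2) and glyceraldehyde-3-phosphate dehydrogenase (gpd-2) act in glycolysis, the alpha subunit of ATP synthase (atp-1) and the ADP/ATP carrier (ant-1.1) work at the inner mitochondrial membrane, and elongation factor 1A (eef-1A.1), the eIF5A homologue (iff-2) and the ribosome-bound scaffold RACK1 (rack-1) take part in protein synthesis. The cytosolic HSP70 chaperone (hsp-1), polyubiquitin (ubq-1) and an alpha-tubulin (tba-2) complete the set. Many worm messages receive a spliced leader in trans, and for such a gene the annotated transcript start can lie at the splice acceptor that receives the leader, downstream of where transcription begins.

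The DNA at the summits showed how unlike these sites were in composition. The strongest promoter summit of 7 genes is shown with up to 50 bp on either side, on the strand of the gene and 5′ to 3′, from the RefSeq sequence of the WBcel235 assembly (ce11). Capitals mark the short words searched on both strands where they occur. Of these 10 words, TAAT is the core that homeodomains are known for, TATAAA is the TATA box and TTTCAG is the end of a worm splice acceptor. The others were GAGAGA as well as CGCGCG, which overlaps in all but its end with the word GCGCGA, and further CGGCCA in addition to ACGCAG, followed by ACCACT together with GTTCGA. At rack-1 a TAAT on each strand overlaps in one stretch of capitals. The first 2 summits lie outside any gene in stretches rich in G and C, the third lies in the gap between eef-1A.1 and rfc-4, the next 3 lie in coding sequence near the 5′ end, and the last lies in an intron of ubq-1.
ant-1.1 (chrIII:13463078-13463162, plus strand): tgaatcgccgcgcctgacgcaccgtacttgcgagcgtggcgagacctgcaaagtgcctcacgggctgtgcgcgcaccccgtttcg
iff-2 (chrII:8561403-8561502, minus strand): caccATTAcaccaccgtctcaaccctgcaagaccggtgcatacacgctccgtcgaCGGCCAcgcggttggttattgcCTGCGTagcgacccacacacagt
eef-1A.1 (chrIII:6972046-6972145, minus strand): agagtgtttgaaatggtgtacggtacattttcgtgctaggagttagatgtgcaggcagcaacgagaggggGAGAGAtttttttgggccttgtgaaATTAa
gpd-2 (chrX:3114579-3114667, minus strand): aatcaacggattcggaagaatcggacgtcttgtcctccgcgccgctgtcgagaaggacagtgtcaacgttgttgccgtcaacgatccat
hsp-1 (chrIV:17279043-17279142, plus strand): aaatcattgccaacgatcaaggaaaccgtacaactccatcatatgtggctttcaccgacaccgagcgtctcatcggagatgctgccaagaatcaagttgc
rack-1 (chrIV:10176774-10176873, plus strand): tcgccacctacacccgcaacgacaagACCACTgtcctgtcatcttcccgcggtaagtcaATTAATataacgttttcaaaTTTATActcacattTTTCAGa
ubq-1 (chrIII:5940662-5940761, plus strand): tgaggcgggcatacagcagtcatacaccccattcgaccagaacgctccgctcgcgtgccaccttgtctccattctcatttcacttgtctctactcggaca

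The 10 genes sat in the middle of the list of both replicates, not at its top. Signal is the authors' deposited value for a peak and has no stated scale. Over 1804 peaks it ran from 3.26 to 822 with a median of 105, and the strongest promoter summits of the 10 genes ran from 82 to 165 with a median of 119. Their percentile within the list, where 100 is the strongest peak, ran from 15 to 75.1 with a median of 59, and 7 of 10 lay above the median of the list. All 669 promoter summits had a median signal of 102. The order from high to low was hsp-1, iff-2, atp-1, eef-1A.1, ant-1.1, tba-2, ubq-1, gpd-2, aldo-2 and rack-1. Ranked by candidate signal within each replicate, only 2 of the 9 pairs of neighbours in that order kept their order in both, hsp-1 above iff-2 and gpd-2 above aldo-2. Of the other 7 pairs, aldo-2 and rack-1 had the reverse order in both replicates. There rack-1 stood above aldo-2, at 43.3 against 42.8 in replicate 1 and 37.9 against 36.4 in replicate 2. The rest kept their order in only 1 replicate and could not be ranked against each other. Signals of the replicates are given side by side for each gene and are compared between genes only within a replicate, since nothing states that their scales are shared.

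**Figure D1:**
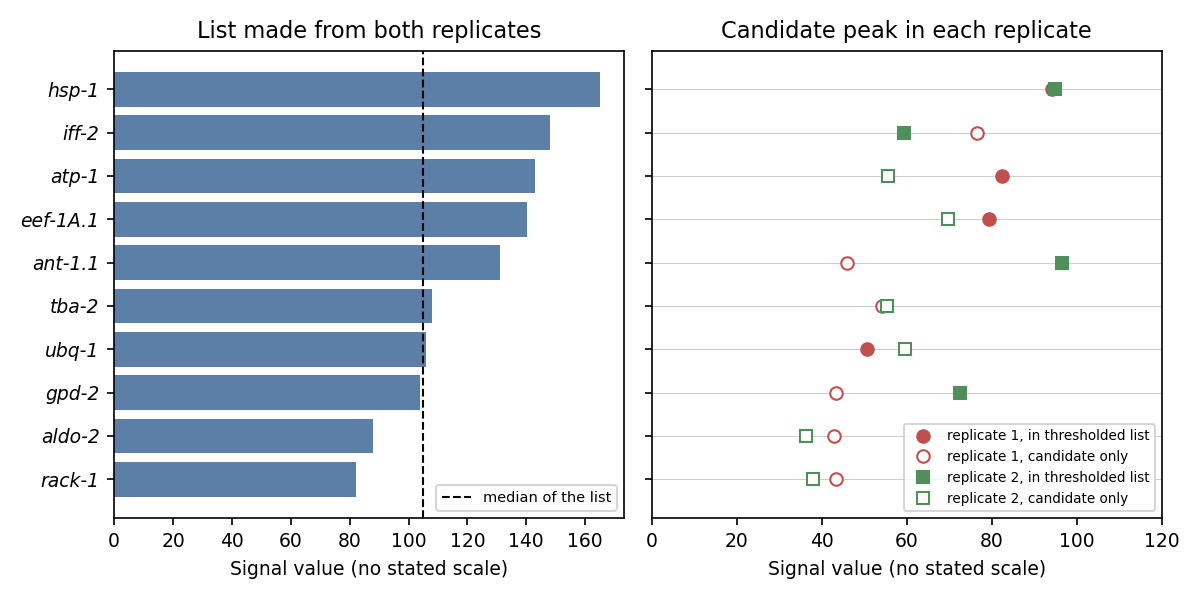
Signal value (no stated scale) at the strongest promoter summit of each gene, on the left in the list made from both replicates with its median as a dashed line, and on the right in the candidate peak of each replicate, filled where the peak was also in that replicate's thresholded list. The left bars run from 82 at rack-1 to 165 at hsp-1, and on the right, where genes are to be compared within a replicate, only hsp-1 is filled in both.

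Of the glycolytic pair, aldo-2 was among the weakest of the set. Its gene (WBGene00017166, III:5874673-5876625, minus strand) held a summit at III:5876365, in the 5′ untranslated region and 105 bp downstream of the nearest start, with a signal of 87.9 and rank 1316 of 1804. Candidate signals were 42.8 in replicate 1 and 36.4 in replicate 2. Both were low for the set, and neither replicate's thresholded list held the peak. The gene has 2 annotated starts, and with the outermost gene start alone as the reference aldo-2 had no promoter summit.

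The dehydrogenase gene gpd-2 (WBGene00001684, X:3113443-3114689, minus strand) is the middle gene of an operon with mai-1, an ATP synthase inhibitor homologue, and gpd-3, a near copy of gpd-2. Its summit at X:3114629 lay in coding sequence 60 bp downstream of the start, with a signal of 104 and rank 914. Candidate signals were 43.3 in replicate 1 and 72.5 in replicate 2, and only the replicate 2 peak passed the threshold there. Upstream in the operon, mai-1 had a summit of its own 177 bp downstream of its start, with a signal of 86.1. Downstream, gpd-3 had no promoter summit, and a peak at X:3112479 within it had a signal of 90.8. Of the 65 overlapping 36-base words in the 100 bp around the gpd-2 summit, 42 (64.6%) occurred again in the genome, every one of them in gpd-3. Over the whole peak 31.4% of such words recurred. Reads no longer than such a word could belong to either gene. Reads were not examined here, so how far the signal of gpd-2 is uncertain was not tested.

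In the main list the mitochondrial genes had stronger and closer summits than the glycolytic pair. Within replicate 1 both were also above that pair in signal. In replicate 2 ant-1.1 was, but atp-1 at 55.6 was below gpd-2 at 72.5. At atp-1 (WBGene00010419, I:12652277-12654655, plus strand) the summit at I:12652286 was 9 bp from the start, with a signal of 143 and rank 548. Candidate signals were 82.5 in replicate 1 and 55.6 in replicate 2, and only replicate 1 passed. The gene is divergent from mcrs-1, a microspherule protein homologue on the other strand whose start lies 190 bp away, and the same summit was 199 bp upstream of mcrs-1. The peak can therefore be assigned to either gene.

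At ant-1.1 (WBGene00006439, III:13463163-13464652, plus strand) the summit at III:13463128 was 35 bp upstream of the start, with a signal of 131 and rank 639. Candidate signals were 46 in replicate 1 and 96.5 in replicate 2, and only replicate 2 passed. Within replicate 2 this was the highest value of the 10 genes, whereas in replicate 1 it was below that of 6 others. The sequence printed above holds 68% G and C in the full 100 bp window, above 98.9% of all summits in the list. Its peak was 75 bp wide, whereas 8 of the 10 genes had peaks of 264 bp, the width of 1404 of 1804 peaks (77.8%). T27E9.2 and abcf-2, an ABC protein of class F, start 579 and 925 bp away on the other strand and count the same summit in their promoters.

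Among the translation genes, eef-1A.1 had a promoter summit on either side of its start. In eef-1A.1 (WBGene00001168, III:6970026-6971712, minus strand) the stronger summit, III:6972096, lay 384 bp upstream with a signal of 140.3 and rank 561. Among the strongest summits of the 10 genes it was the farthest from a start, and it lay 11 bp from the annotated miRNA gene cel-mir-5549. Candidate signals were 79.3 in replicate 1 and 69.7 in replicate 2, and only replicate 1 passed its threshold. The weaker summit, III:6971591, lay in coding sequence 121 bp downstream with a signal of 85.8, and its candidate signals were 37.5 and 45.6. Both summits also fell in the promoter of rfc-4, a replication factor C subunit that starts 541 bp away on the other strand. The stronger one was nearer to rfc-4, at 157 bp, than to eef-1A.1.

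The eIF5A gene iff-2 (WBGene00002065, II:8559375-8561367, minus strand) had a summit at II:8561453, 86 bp upstream, with a signal of 148 and rank 525. Candidate signals were 76.6 in replicate 1 and 59.4 in replicate 2. Replicate 1 missed its threshold and replicate 2 met it. F54C9.14 starts 935 bp away on the other strand and shared the summit.

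For rack-1 (WBGene00010556, IV:10176680-10178099, plus strand) the summit at IV:10176824 lay in coding sequence 141 bp downstream of the nearest start, with the lowest signal of the set, 82, and rank 1534. Candidate signals were 43.3 in replicate 1 and 37.9 in replicate 2, each above that of aldo-2, and neither passed. The summit lay 149 bp from the snoRNA gene K04D7.17. With eef-1A.1 this made 2 of 10 genes with a short noncoding gene (tRNA, snRNA, snoRNA, miRNA or rRNA) within 500 bp of the summit, and the share over all promoter summits was 141 of 669 (21.1%).

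The chaperone gene hsp-1 (WBGene00002005, IV:17278959-17281330, plus strand) had the highest signal of the set, 165 at rank 449, from a summit at IV:17279093 in coding sequence 134 bp downstream of the start. Candidate signals were 94.1 in replicate 1 and 95 in replicate 2, and both passed. It was the only one of the 10 genes with a promoter summit in all 4 thresholded lists. Of 65 words of 36 bases around the summit 22 (33.8%) recurred, all in an HSP70 pseudogene on X. Over the whole peak the share was 12.9%. As at gpd-2, reads no longer than such a word could belong to either place, and how far the hsp-1 signal is uncertain was not tested. For the other 8 genes no word recurred, and 683 of 1804 summit windows (37.9%) held at least 1 such word.

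Polyubiquitin, ubq-1 (WBGene00006727, III:5940254-5943841, plus strand), had a pair of promoter summits. The stronger one, III:5940712, lay in an intron 274 bp upstream of an internal start, with a signal of 106 and rank 877. Candidate signals were 50.6 in replicate 1 and 59.7 in replicate 2, and only replicate 1 passed. The other summit, III:5939686, lay outside the gene, 568 bp upstream of the outer start, with a signal of 97 and candidate signals of 43.6 and 31. Having more than 1 promoter summit set eef-1A.1 and ubq-1 apart from the other 8 genes, and 65 of 752 genes with a promoter summit (8.64%) had more than 1.

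The alpha-tubulin gene tba-2 (WBGene00006529, I:12964674-12966795, minus strand) had a summit at I:12966944, 149 bp upstream, with a signal of 108 and rank 842. Candidate signals were 54.2 in replicate 1 and 55.4 in replicate 2, and neither passed. A second candidate peak at I:12966424, 153 bp upstream of an internal start, had a signal of 103 and just missed the main list.

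Support by the replicates was uneven from gene to gene. In the conservative list of both replicates 7 of the 10 genes had a promoter summit, all but aldo-2, gpd-2 and rack-1, where the share of all protein-coding genes was 3.43%. In replicate 1 there were 4 of 10 (atp-1, eef-1A.1, hsp-1 and ubq-1) against a background of 1.77%, and in replicate 2 there were 4 of 10 (gpd-2, ant-1.1, iff-2 and hsp-1) against 1.85%. Only hsp-1 was in both, and aldo-2, rack-1 and tba-2 were in neither. Over the whole main list 33.3% of peaks overlapped a peak of both replicate lists and 43% overlapped neither. Over peaks with a promoter summit these shares were 26.6% and 44.4%.

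Below the threshold every gene had a candidate peak in both replicates. This too was common, since 97.8% of all main peaks and 98.5% of promoter peaks overlapped candidates in both, and candidates covered 15.6% of the genome in replicate 1 and 18.4% in replicate 2. A promoter candidate was present for 58.4% of protein-coding genes in replicate 1, for 61.8% in replicate 2, and for 61.4% and 61.1% in the lists behind the main and the conservative one. By signal the candidates of the 10 genes were in the top part of each replicate, at percentiles of 96.5 to 99.3 in replicate 1 and 92.4 to 99.4 in replicate 2. The genes were chosen for peaks in the main list, a small part of all candidates. A high place was therefore largely fixed by the choice and is no separate support. Replicate summits lay a median of 15 bp from the main summit in replicate 1 and 8 bp in replicate 2, with the longest shift, 112 bp, at gpd-2 in replicate 1.

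Thresholds were set on the irreproducible discovery rate (IDR), the share of peaks at that rank or better expected not to recur, and every thresholded peak had an IDR of 0.01 or less. Meeting this limit was not enough by itself, since 1964 candidates behind the main list met it and 1804 peaks were listed, so a further filter had removed the rest. Signal did not order the genes by whether they passed. In replicate 1, iff-2 had a signal of 76.6 with an IDR of 0.497 and was left out, whereas ubq-1 at 50.6 had an IDR of 0.00458 and was kept. In the list behind the main one, IDR ran from 0.00063 at hsp-1 to 0.00769 at rack-1, the last gene inside the limit. The nearest candidate outside was the second one of tba-2 at 0.0101, followed by one at hsp-1 with a signal of 76.1 and an IDR of 0.0233. Of 27 candidate summits in the promoters of these genes 12 were in the main list. In the list behind the conservative one, gpd-2 stood apart with an IDR of 0.533 against 0.00281, while aldo-2 and rack-1 just missed at 0.0136 and 0.0106.

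**Figure D2:**
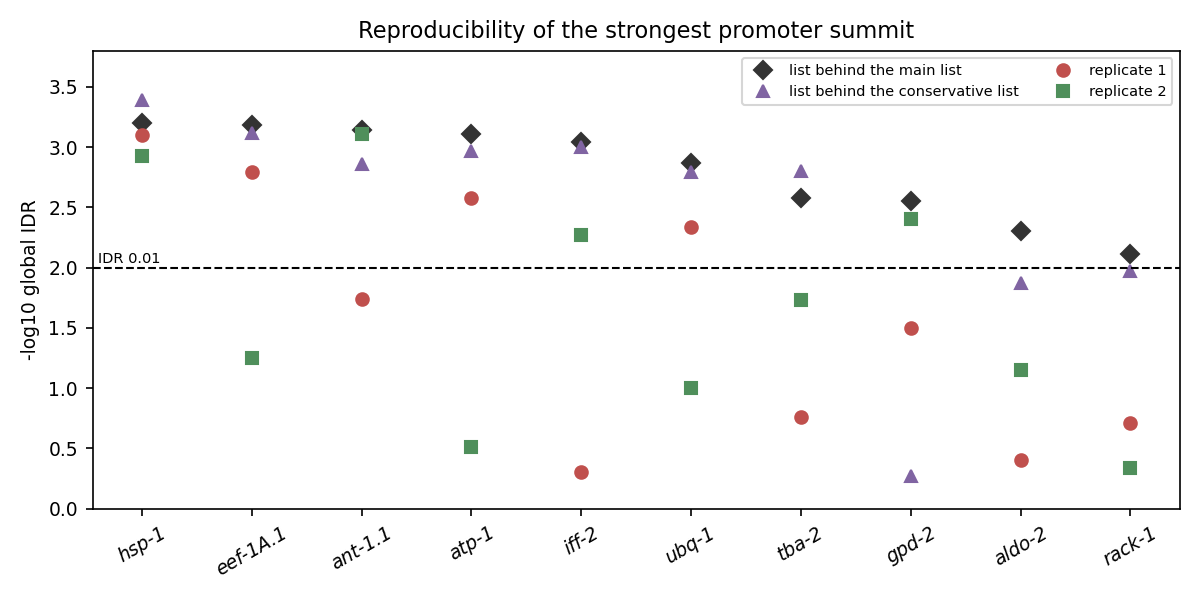
The −log10 of the global IDR at the strongest promoter summit of each gene in 4 ranked lists, with higher points meaning a lower IDR and the dashed line at an IDR of 0.01. All 10 black diamonds lie above the line by the choice of genes, only hsp-1 has every point above it, and aldo-2, rack-1 and tba-2 have both replicate points below it.

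Summits of these genes lay close to the start. The offset from the nearest start, negative upstream, ran from -384 to 141 bp with a median of -13 bp, and 8 of 10 genes lay within 200 bp. For all 752 genes with a promoter summit the median was -346 bp, and 252 (33.5%) lay within 200 bp. The summit was downstream of the start in aldo-2, gpd-2, atp-1, rack-1 and hsp-1 and upstream in the other 5, whereas 647 of 752 genes (86%) had it upstream. Location was part of how the genes were described when they were chosen, so these contrasts are given without a test. By annotation 4 summits were intergenic, 3 were in coding sequence, 2 in a 5′ untranslated region and 1 in an intron. Of 669 promoter summits 56.8% were intergenic, 18.8% were in coding sequence, 4.78% in a 5′ untranslated region and 16.7% in an intron. The same summit fell in the promoter of another gene for 4 of 10 genes (atp-1, ant-1.1, eef-1A.1 and iff-2). Of promoter summits, 141 of 669 (21.1%) fell in the promoters of more than 1 gene. The first share counts genes and the second counts summits, where a shared summit counts once, so they cannot be compared directly.

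**Figure D3:**
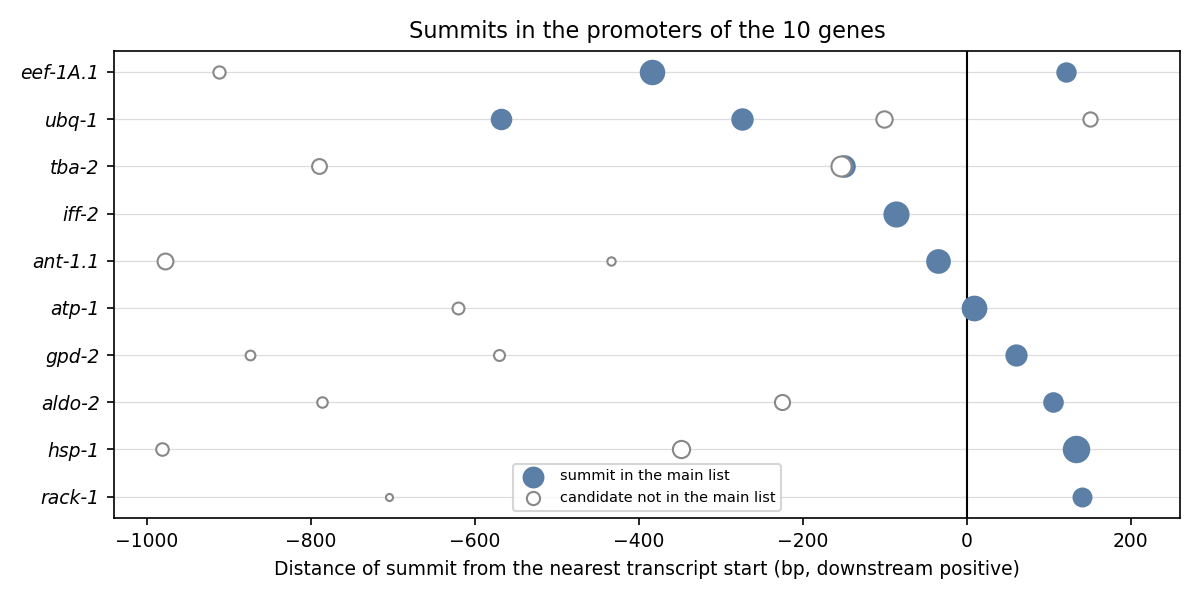
Summits in the promoters of the 10 genes by distance from the nearest transcript start (bp, downstream positive), filled where the summit is in the list made from both replicates and open where it is only a candidate, with larger symbols for higher signal. The strongest summits of 8 genes lie within 200 bp of the start, and those of eef-1A.1 and ubq-1 lie farther upstream.

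The annotated start itself often followed letters like those that end a splice acceptor. Only the letters were counted, at any start of a gene, and use of a leader was not measured. The word TTTCAG stood directly before an annotated start in 5 of the 10 genes (aldo-2, gpd-2, eef-1A.1, ubq-1 and tba-2), against 225 of 752 genes with a promoter summit (29.9%) and 3327 of 19973 protein-coding genes (16.7%). A plain AG stood there in 8 of 10 genes, against 55.1% and 36.1%. For such starts the annotation can mark where the leader is joined, so the distance from the summit to the site where transcription begins was not measured here.

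Every summit was richer in G and C than its surroundings. In 100 bp around the strongest summit G and C content ran from 42% at rack-1 to 68% at ant-1.1, with a median of 51.5%, and in windows 200 to 300 bp away on both sides it ran from 22% at iff-2 to 40% at gpd-2. The summit was the higher in 10 of 10 genes, as it was at 93.1% of promoter summits and 91.6% of all summits. The median was 51% both over all summits of the list and over promoter summits, so the level at the summit was ordinary for the list. Farther out the mean over the 10 genes went below that of promoter summits on the upstream side, reaching its lowest value of 28.2% at 150 bp against 37.3%, and above it on the downstream side, with 46.4% at 400 bp against 37.5%. These positions were picked as the extremes of the profile after it was seen.

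**Figure D4:**
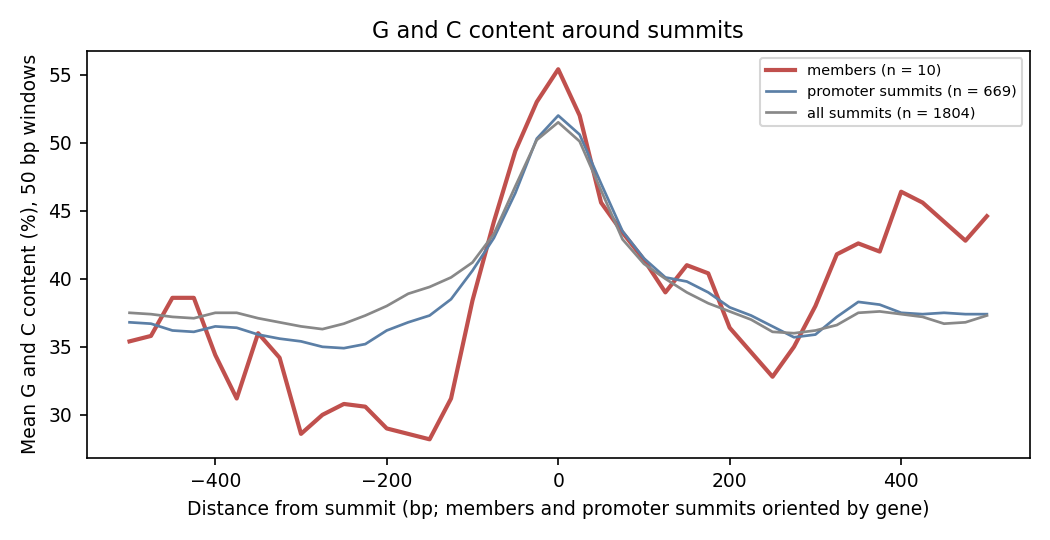
Mean G and C content (%) in 50 bp windows by distance from the summit (bp), for the 10 genes and the 669 promoter summits oriented by the gene with downstream positive, and for all 1804 summits in genome order. The 10 genes peak at 55.4% at the summit, near the 52% of promoter summits, dip to 28.2% on the upstream side and rise to 46.4% at 400 bp downstream, with the jagged line coming from only 10 windows per point.

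None of the short words was common to all these summits. In the 100 bp windows 4 of 10 genes held at least 1 of the 10 words searched, namely eef-1A.1, iff-2, rack-1 and tba-2, against 72.2% of all summits and 71.2% of promoter summits. The homeodomain core TAAT was in the same 4, a share to set beside 32.4% of all summits and 30.2% of promoter summits. Both counts were higher in a wider window. With 200 bp, hsp-1, ubq-1 and gpd-2 also held a word. TAAT was then in 6 of 10 genes, against 61.7% of all summits and 58.6% of promoter summits. The share of summits with any word was not counted at 200 bp. At 100 bp GAGAGA occurred at eef-1A.1 alone, where 13.9% of promoter summits held it, and CGGCCA and ACGCAG at iff-2 alone, where 9.27% held each. GCGCGA occurred at tba-2 alone (4.93% of promoter summits), and rack-1 alone held ACCACT (12.4% of promoter summits), TATAAA (3.89% of them) and TTTCAG (9.12% of them). CGCGCG and GTTCGA were in none of the 10 windows and in 4.33% and 13.2% of promoter windows. At 200 bp GAGAGA was also at tba-2, ACGCAG at hsp-1 and TTTCAG at gpd-2. The shares of promoter summits were then 27.7%, 15.1% and 22.3%. TAAT has 4 letters and the others 6, so it is found more often in any sequence. A match is a description of these letters and not a measured binding site.

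Summits were not limited to the start of these genes. Within 500 bp of the annotated gene end, a measure added after the values were seen, the main list held a summit for 4 of the 10 genes, namely eef-1A.1, hsp-1, ubq-1 and tba-2. Over all protein-coding genes the share was 2.80%, and over the 752 genes with a promoter summit it was 10.5%. At hsp-1, ubq-1 and tba-2 the peak at the end had the higher signal in the main list. The hsp-1 end had a signal of 171 at IV:17281357, 27 bp beyond the gene, against 165 at its promoter. The replicates went the other way, with a candidate signal of 60.8 at the end against 94.1 at the promoter in replicate 1, and no candidate at the end against 95 at the promoter in replicate 2.

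At the ubq-1 end the signal was 135 against 106 at the promoter, from a summit at III:5943966 that lay 125 bp beyond the gene in coding sequence of its neighbour F25B5.5. Its candidate signals were 61.8 in replicate 1 and 70.5 in replicate 2, each above the 50.6 and 59.7 at the promoter, and both passed, whereas at the promoter only replicate 1 did. The tba-2 end had a signal of 118 against 108, 58 bp beyond the gene, and this summit also fell in the promoter of C47B2.2. Its candidate signals were 64.5 and 62.5, each above the 54.2 and 55.4 at the promoter, and only replicate 1 passed. The eef-1A.1 end was weak, with a signal of 71.8 inside the last part of the gene and candidate signals of 22.9 and 58.4. Only replicate 2 passed there, whereas at the stronger promoter summit only replicate 1 did. The conservative list did not hold this end.

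The ends of other genes appeared in other lists. The conservative list held an end summit for 5 of the 10 genes against a background of 2.53%, replicate 1 for 5 against 1.23% and replicate 2 for 3 against 1.35%. In at least 1 of the 4 lists there was one for 7 of 10 genes, which adds aldo-2, atp-1 and ant-1.1, against 3.32% of protein-coding genes and 12.2% of genes with a promoter summit. At ant-1.1 the end peaks lay partly over the neighbouring gene cdk-5. The end of hsp-1 and that of ubq-1 differ in sequence from the promoters printed above. They are shown as the 2 ends with the highest signal in the main list, above that of the promoters there, though for hsp-1 not in the replicates. The hsp-1 stretch, in which TTTCAG is in capitals, starts right after the gene.
hsp-1 end (chrIV:17281331-17281406, plus strand): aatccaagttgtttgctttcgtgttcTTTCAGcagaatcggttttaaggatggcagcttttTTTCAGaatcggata
ubq-1 end (chrIII:5943916-5944015, plus strand): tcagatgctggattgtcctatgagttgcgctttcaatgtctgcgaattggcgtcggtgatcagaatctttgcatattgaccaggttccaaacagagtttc

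Relatives of the 10 genes were examined in 8 lists of 89 genes, of which 80 were not among the 10. Promoter summits were found for 25 of the 89, and for 16 of the 80 others (20%), against 3.77% of all protein-coding genes. The HSP70 family had the largest share, 6 of 8 genes, but with promoters cut to 500 bp before and 100 bp after a start it counted 3 of 8 and translation elongation 4 of 8. Beside hsp-1, the endoplasmic reticulum chaperones hsp-3 and hsp-4 had signals of 105 and 107 and hsp-110 had 212. The heat-inducible pair F44E5.4 and F44E5.5 shared a single summit between them with a signal of 263. Candidate signals there were 140.2 in replicate 1 and 123 in replicate 2, above those of hsp-1 in both.

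Translation elongation followed with 4 of 8 genes, of which eef-1A.2, the other elongation factor 1A gene, had a signal of 132 at 315 bp upstream and iff-1, the other eIF5A gene, had 94. At eef-1A.2 the candidate signals were 48.1 in replicate 1 and 76.9 in replicate 2, and only replicate 2 passed, whereas at eef-1A.1 only replicate 1 did. ATP synthase genes counted 4 of 13, with atp-4 at 88.7, atp-5 at 129.9 and mai-1 at 86.1 beside atp-1. They counted 3 of 13 in the conservative list, 3 of 13 in replicate 1 and 0 of 13 in replicate 2. The atp-5 peak had no candidate in replicate 2, and the mai-1 peak overlapped a peak of neither replicate's thresholded list.

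Glycolysis and gluconeogenesis counted 5 of 22 genes in the main list and 2 of 22 in the conservative list. Beside aldo-2 and gpd-2 these were hexokinase hxk-2 at 102, glucose-6-phosphate isomerase gpi-1 at 114 and phosphoenolpyruvate carboxykinase pck-2 at 281. The pck-2 summit was the strongest of all those in the 8 lists, and its candidate signals were 153 and 151. In a list of 15 other abundant cytoplasmic proteins, hsp-90 had a signal of 147 and the 14-3-3 genes ftt-2 and par-5 had 103 and 132.

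In the remaining lists the gene followed here was the only one with a promoter summit. These were ant-1.1 among 4 adenine nucleotide carriers, tba-2 among 16 tubulins and ubq-1 among 3 ubiquitin genes. With promoters widened to 2000 bp before and 500 bp after a start the counts were 2 of 4, 4 of 16 and 2 of 3, so other genes joined them. The lists were drawn up around the 10 genes with earlier results of these data known, so their shares are descriptions and nothing here is particular to them.

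**Figure D5:**
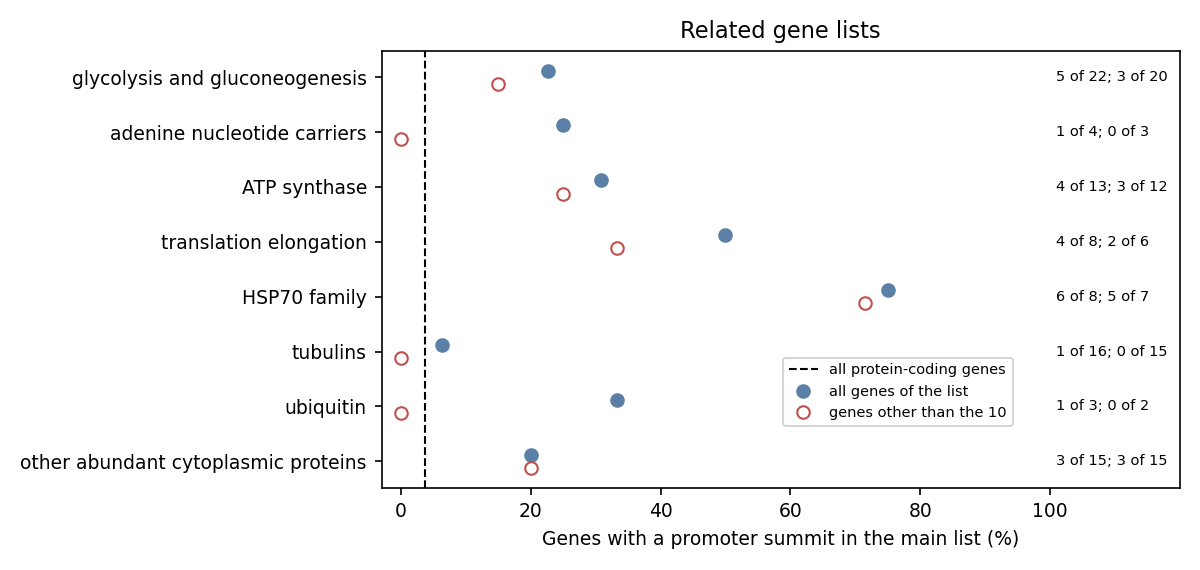
Share of genes (%) with a promoter summit in the list made from both replicates, for each of 8 related lists with all genes (filled) and without the 10 genes followed here (open), and for all protein-coding genes (dashed line, 3.77%). Counts are printed at the right, first for the whole list and then without the 10 genes, and the HSP70 family is the highest at 6 of 8 and 5 of 7, an order that turns when promoters are cut to 500 bp before and 100 bp after a start.

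Only hsp-1 had a value in all 4 thresholded lists, so likeness could be measured for it alone. Its percentiles were 75.1 in the main list, 72.7 in the conservative one, 58.2 in replicate 1 and 58.8 in replicate 2. Among 208 genes with a promoter summit in all 4 lists, the 5 closest to this profile over those 4 values were Y54G2A.44, the adenylate kinase gene let-754, pcyt-2.1, a gene of phosphatidylethanolamine synthesis, Y65A5A.1 and the glycogen phosphorylase gene pygl-1. Their Euclidean distances from hsp-1 ran from 6.24 to 11.1 percentile points, and all 5 had higher signals in the main list than hsp-1, from 181 to 192.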

How the data were processed

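Peak lists of 2 biological replicates of 1 group were used, in ce11 coordinates per the labels. The aligner and peak caller were not given in the sources used here and the read depth is unknown, so no interval is printed. The deposited signal value of a peak has no stated scale, so genes were compared only within a list. All 1804, 1649, 883 and 920 thresholded peaks met an IDR of 0.01, and a further filter, not given in those sources, had removed others that met it. The q-value and IDR columns the authors deposited are on a −log10 scale and were converted to rates. The 4 thresholded lists were read with the 4 ranked lists behind them, and 16 columns for single inputs in the ranked lists of the replicates were not used. The labels name a possible control experiment, not analysed here.

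Gene and transcript starts came from Ensembl release 115 (31853 protein-coding transcripts) and sequence from RefSeq WBcel235, the same build as ce11. The strongest summit by signal stood for a gene. A replicate candidate was the peak that overlapped the main peak by at least 1 bp. Words of 36 bases, a length set here without examining reads, were sought on both strands of the genome. Calculations used Python 3.11.15, numpy 2.4.6 and matplotlib 3.10.9. The assignment of summits to promoters was checked on a simulated list, and the other calculations were not checked in this way.

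The genes named are the 10, those that share a summit with one of them, members of the 8 related lists with a promoter summit, the 5 genes most like them and, chosen after values were seen, neighbours at gene ends and in the gpd-2 operon. Members and lists were chosen with earlier results of these data known, so no test was run. Other promoter widths, windows, overlaps and lists were tried as alternatives.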

Additional observations from a re-analysis of the deposited data

How the results depend on the processing

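With either replicate's list alone, 4 of the 10 genes had a promoter summit in place of 10, and the share of protein-coding genes with one fell from 3.77% to between 1.77% and 1.85%. The lists of single replicates also gave 0 to 1 genes near a short noncoding gene in place of 2, 11 to 15 genes of the related lists in place of 25, a median offset of -153 to 10 bp in place of -13 bp, a median percentile of 44.8 to 46.8 in place of 59, and a median G and C content of 52 to 54.5% in place of 51.5%. Each single list held other genes, so these values are not over the same 10. The conservative list gave 1 gene near a short noncoding gene, a median percentile of 65.9 and a G and C content of 55%. Promoters of 500 bp upstream and 100 bp downstream left 7 of the 10 genes with a promoter summit, all but aldo-2, rack-1 and hsp-1. Over those 7 this gave 1 gene near a short noncoding gene and a median percentile of 64.6. The share of protein-coding genes was 2.24%. Promoters of 2000 bp upstream and 500 bp downstream gave 6.12% of protein-coding genes, and the stronger part of the main list gave 1.94%. That stronger part left 7 of the 10 genes, all but aldo-2, gpd-2 and rack-1, and 18 genes of the related lists in place of 25. An overlap of at least 50% of both peaks left 0 of the 10 genes in both replicate lists in place of 1. A window of 200 bp gave a G and C content of 48%. It also gave 2 genes in place of 1 with GAGAGA, with ACGCAG and with TTTCAG. No paired analysis was possible because there is 1 group and no comparison between groups.

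Read depth is unknown from peak lists, so how far it limits the weaker peaks, those of aldo-2 and rack-1 among them, was not tested. Without a control precipitation, the share of signal at these promoters and gene ends that does not depend on tagged LIM-7 was not tested either.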
